A study of Mus musculus with 30 samples.

Results

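Retinal ganglion cells (RGCs) are the neurons that carry visual signals out of the eye, and their axons form the optic nerve. Crushing the nerve cuts those axons behind the eye, after which most RGCs of an adult mouse die over the following weeks and few regrow an axon. An injured RGC is known to signal through the kinases DLK and JNK to transcription factors such as Jun, Atf3, Sox11 and Ddit3, and these act in both the death and the regrowth of the cell. The comparison described here is that of RNA from RGCs taken 4 days after the crush with RNA from RGCs of mice with no crush, across the genes of the deposited count table. It rests on 5 of the 30 samples of the series: day 4 replicates 2 and 3 (label "Crush (Day 4)") and no crush replicates 1, 2 and 3 (label "No Crush (Day0)"). Of 13752 genes in the table, 13737 were tested.

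Both groups were bulk RNA-seq of RGCs sorted by fluorescence from papain-dissociated retina and amplified with SMART-Seq v4, a kit for small amounts of RNA that does not keep the strand. The day 4 libraries carry the strain label C57BL/6, as does no crush replicate 1, whereas no crush replicates 2 and 3 are labelled C57BL/7 and C57BL/8, and whether those are other strains cannot be told from the labels. The labels give no age, sex or marker used for the sort, and nothing in them ties a replicate to an animal of its own. The p-values therefore reflect how far libraries of the same day differ among themselves, which may be technical variation. That spread was estimated over all 13 RNA libraries, those of days 1 to 3 included. Day 4 replicate 1 is not analysed here. Cells sorted on day 4 are those still present then. In such bulk samples fewer cells of an RGC subtype and less RNA per cell cannot be told apart.

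The libraries held 26438822 and 20510457 counts on day 4, against 19024286, 23848470 and 27561352 counts with no crush, and every level below is in CPM, a gene's counts scaled to a common library total after TMM normalisation. CPM is not corrected for transcript length, so levels are compared between libraries and not between genes. Pearson's r of log2 CPM across genes was 0.982 between the day 4 libraries, 0.971 to 0.977 among no crush libraries and 0.919 to 0.927 between the groups. The RGC markers fixed for the check were present in all 5 libraries: Thy1 measured 1561 and 1334 CPM on day 4 and 1841, 1834 and 1958 CPM with no crush, and Slc17a6, the glutamate transporter that loads RGC synaptic vesicles, 1652 and 1559.9 CPM on day 4 and 1412, 1208 and 1254 CPM with no crush. Other markers of the same check, Rbpms, Pou4f1, Pou4f2, Nefl, Nefm and Isl1, were called lower on day 4, as described below. Markers of rods, the most numerous cells of the retina, summed to 1250.2 and 1677 CPM on day 4 and 2055, 1395 and 1408 CPM with no crush. No crush replicate 3 stood apart in its interferon-induced genes, which summed to 3764 CPM against 289 and 312 CPM in the other no crush libraries. The interferon-induced and MHC class I lists are given with and without it, as are several genes whose fold or call changed without it. Where library values of a gene are given below, both day 4 libraries lay above all 3 no crush libraries or below all 3, unless an overlap is stated.

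At 4 days the RNA of the sorted RGCs differed from that of uncrushed RGCs at 5337 of the 13737 genes (38.9%), by edgeR's quasi-likelihood F test with Benjamini-Hochberg adjusted p under 0.05. Of these, 2721 (19.8%) were higher and 2616 (19.0%) were lower on day 4. Changes of at least 2-fold were found for 1141 of the higher and 1203 of the lower genes, and changes of at least 10-fold for 144 and 69. The median log2 fold change was 0.86 for the higher genes, -0.93 for the lower genes and 0.06 over all genes tested, with a median SE of 0.21. The CPM of the 2 groups did not overlap for 5300 of the called genes and overlapped for 37. Genes that were higher summed to a mean of 344255 CPM on day 4, against 188741 CPM with no crush. Genes that were lower summed to 261882 CPM, against 481685 CPM, and genes that were not called to 373700 CPM, against 373251 CPM. Genes spanning over 100 kb in the deposited annotation were lower in 33.5% of 2158 cases and higher in 17.9%. In the 3 classes of shorter span, 15.04% to 18.4% were lower. Of 259 called genes named by rule, 25 lost their call in a fit with the first 2 sequencing components as terms, which are scores that the authors deposited for each library; this is called the component fit below. The same number lost it without day 4 replicate 3, and 18 without day 4 replicate 2.

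**Figure D1:**
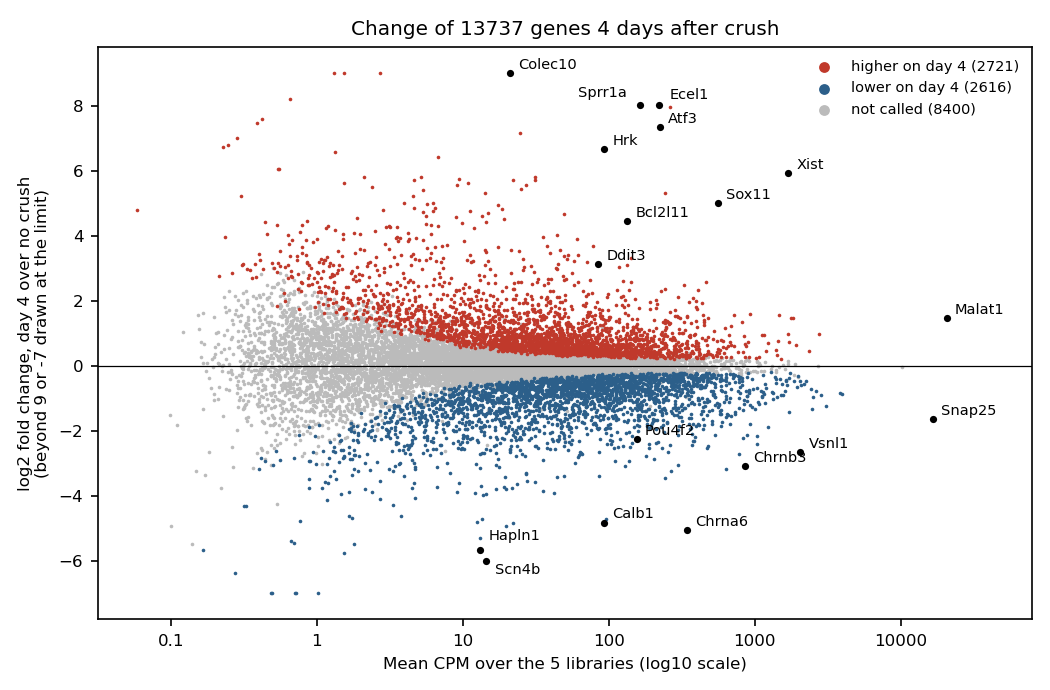
Mean CPM over the 5 libraries (x axis, log scale) and log2 fold change of day 4 over no crush (y axis), 1 point per gene, with fold changes beyond 9 or -7 drawn at the limit. The 2721 higher genes are red, the 2616 lower genes blue and the others grey, and black points with names mark genes given in the text.

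The largest rises were in genes whose level was low in uncrushed RGCs. Atf3, a stress-induced transcription factor of the ATF family (chromosome 1, 191170296 to 191218039), had 544 and 569 CPM on day 4, against 4.44, 2.24 and 3.77 CPM with no crush, a 161-fold difference (log2 7.33 ± 0.18 SE, adjusted p = 5.18e-14). Ecel1, a membrane metalloprotease of injured neurons, measured 564 and 532 CPM on day 4 against 2.38, 2.5 and 1.56 CPM with no crush (258-fold, adjusted p = 8.56e-12). Hrk, a BH3-only protein that promotes apoptosis of neurons (chromosome 5, 118164648 to 118189478), measured 236 and 224 CPM on day 4 against 2.87, 2.2 and 1.79 CPM with no crush (102-fold, adjusted p = 5.92e-14). In all of these the day 4 libraries lay close together and far above every no crush library. Sox11, a developmental transcription factor (chromosome 12, 27334264 to 27342574), reached 1318 and 1360.4 CPM on day 4 against 38.5, 41.9 and 45.5 CPM with no crush (31.9-fold, adjusted p = 2.07e-15), which was the smallest p among the named genes. Sema3c, a secreted semaphorin, had 54.7 and 66.5 CPM on day 4 and 0.595, 0.302 and 0.389 CPM with no crush (143-fold, adjusted p = 9.07e-12). Colec10, a collectin, had no count in any no crush library, where 3 counts would be 0.117 to 0.162 CPM. With 46 and 58.6 CPM on day 4 it was at least 384-fold higher, taking 3 counts per no crush library as the floor.

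For several of the 15 largest rises the size of the fold rested on single no crush libraries, although the call did not. Sprr1a, a cornified-envelope protein known from regenerating sensory neurons, had 424 and 394 CPM on day 4 and 0.0541, 0.216 and 4.08 CPM with no crush; its fold was 256 with all libraries and 2719 without no crush replicate 3. Mmp12, a macrophage elastase gene, had 657 and 659 CPM on day 4 against 0.812, 0.777 and 5.99 CPM with no crush, 245-fold with all libraries and 819-fold without the same library. Tnfrsf12a, the receptor of the cytokine TWEAK, had 78.5 and 74 CPM on day 4 against 0.65, 0.648 and 2.84 CPM with no crush, 52.6-fold and 116-fold without it. The no crush library that is high in these genes is the library that is high in interferon-induced genes, and the part of that difference in these folds was not tested. Without no crush replicate 2 the fold was 173 in place of 84.6 for Cd109, a membrane protein that binds TGF-beta, 101 in place of 56.1 for Itga5, the alpha chain of the fibronectin receptor, 114 in place of 52.7 for the actin-binding Xirp2 and 81.8 in place of 49.3 for Bpifc. Without no crush replicate 1 it was 134 in place of 52.9 for Cox6a2, the muscle isoform of a cytochrome c oxidase subunit, and 267 in place of 56.3 for the sorting nexin Snx33. Without no crush replicate 2 these were 34.4 and 36.7. Day 4 levels of these 6 genes were 17.7 and 15.6 CPM for Cd109, 75.5 and 75.8 CPM for Itga5, 48.3 and 59.3 CPM for Xirp2, 26.4 and 26 CPM for Bpifc, 22.1 and 23.9 CPM for Cox6a2 and 16.1 and 8.91 CPM for Snx33, and none of the no crush libraries exceeded 2.50 CPM in any of them.

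**Figure D2:**
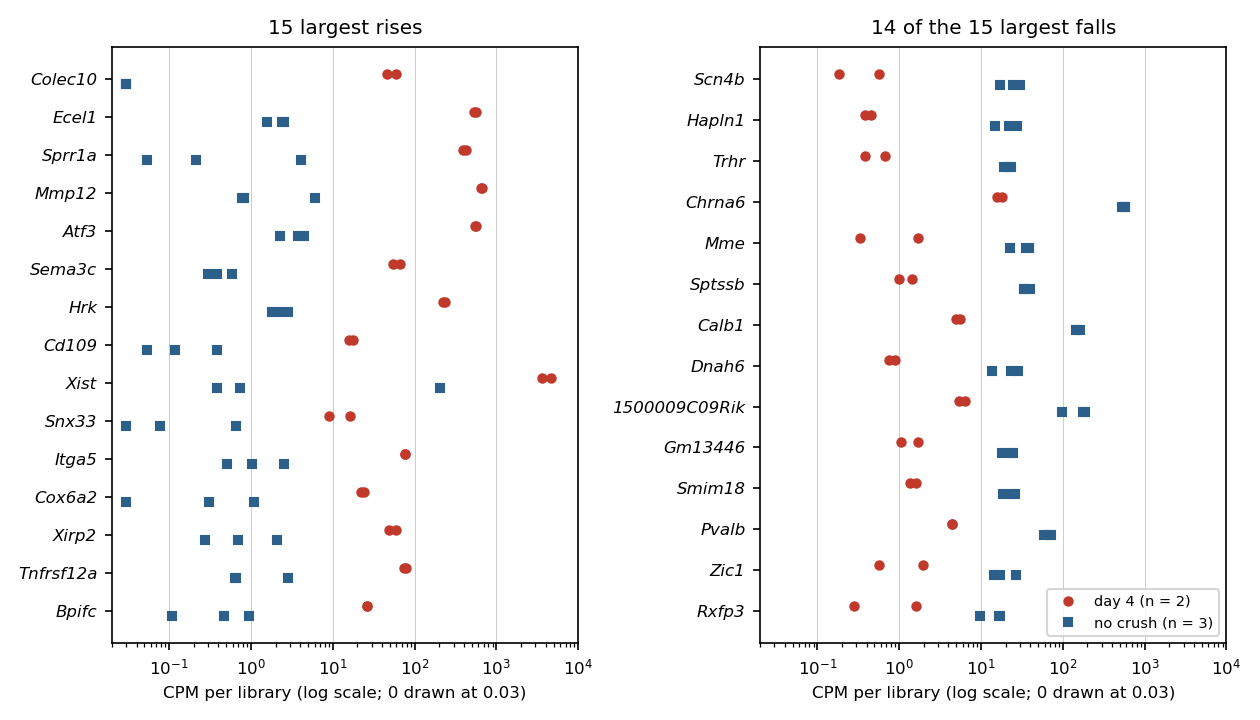
CPM per library (x axis, log scale, 0 drawn at 0.03) of the 15 largest rises and 14 of the 15 largest falls that passed the test with a mean of at least 5 CPM and no overlap, with day 4 libraries as red circles and no crush libraries as blue squares. For Atf3 the 2 day 4 points at 544 and 569 CPM lie above the 3 no crush points at 4.44, 2.24 and 3.77 CPM, and for Xist the no crush points are spread from 0.389 to 206 CPM.

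The promoters of Atf3, Hrk, Sox11 and Jun are shown because these genes of stress, death and growth rose far and because footprints of ATF3 and ATF4, factors that bind related cyclic AMP response elements, were deposited for day 0 and day 3 of the ATAC-seq arm of the study, which measures open chromatin. Each window runs from 250 bases before to 50 bases after a RefSeq transcription start (build GRCm38.p6) and is written 5' to 3' along the gene, with the footprint sites that the authors list there for either factor in capitals. Of the 276 genes named by rule, 213 had such a window.
Atf3, chr1:191183284-191183583, minus strand: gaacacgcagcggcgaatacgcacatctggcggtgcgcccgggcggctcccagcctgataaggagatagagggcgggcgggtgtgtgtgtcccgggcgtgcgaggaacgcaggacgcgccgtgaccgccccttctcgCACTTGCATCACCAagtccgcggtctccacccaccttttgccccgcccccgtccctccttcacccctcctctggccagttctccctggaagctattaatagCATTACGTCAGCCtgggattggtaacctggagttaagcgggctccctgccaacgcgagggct
Hrk, chr5:118169514-118169813, plus strand: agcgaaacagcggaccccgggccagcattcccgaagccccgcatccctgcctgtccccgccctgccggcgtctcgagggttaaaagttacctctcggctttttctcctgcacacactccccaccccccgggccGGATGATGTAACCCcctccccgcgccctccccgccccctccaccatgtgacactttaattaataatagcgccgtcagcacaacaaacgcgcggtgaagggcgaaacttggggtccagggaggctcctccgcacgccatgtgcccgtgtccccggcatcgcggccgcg
Sox11, chr12:27342669-27342968, minus strand: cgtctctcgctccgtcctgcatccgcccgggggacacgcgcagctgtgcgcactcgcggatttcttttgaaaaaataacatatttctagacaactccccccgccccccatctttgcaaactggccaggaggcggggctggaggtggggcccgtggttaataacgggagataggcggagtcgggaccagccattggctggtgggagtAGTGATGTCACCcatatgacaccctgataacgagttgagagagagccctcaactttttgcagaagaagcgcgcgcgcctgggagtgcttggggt
Jun, chr4:95052173-95052472, minus strand: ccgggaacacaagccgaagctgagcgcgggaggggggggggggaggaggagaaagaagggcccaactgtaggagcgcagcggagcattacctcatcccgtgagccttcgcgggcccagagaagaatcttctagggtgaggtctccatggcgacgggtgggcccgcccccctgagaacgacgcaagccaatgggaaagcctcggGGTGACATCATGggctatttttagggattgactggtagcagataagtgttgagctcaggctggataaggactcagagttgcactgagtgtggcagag
The Atf3 window holds 3 listed sites, an ATF4 site and an overlapping pair of an ATF3 and an ATF4 site, all marked bound on day 0 and on day 3. In Hrk the overlapping ATF3 and ATF4 sites were marked bound on day 3 and not on day 0. The single ATF3 sites of Sox11 and Jun were marked bound on both days. Such marks were not confined to genes that rose. Mme and Pdyn, which were lower on day 4 (log2 -4.94 and -2.65), also held an ATF3 site marked bound on day 3 and not on day 0. The Pdyn call was lost with only the 2 groups in the fit (adjusted p = 0.0744) and without no crush replicate 1 (adjusted p = 0.0681). The Pdyn log2 fold change was -1.88 without day 4 replicate 2. Dnah6 and Pax6, lower by log2 -4.73 and -1.72, held ATF3 sites marked bound on both days. These marks are the authors', from pooled libraries in columns headed non-target, a term the labels do not explain, and no ATAC-seq of day 4 was used.

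Across all genes, a bound ATF4 site on day 3 within 1 kb of a start was listed for 262 of the 2721 genes that were higher on day 4 (9.63%), 123 of the 2616 that were lower (4.70%) and 797 of all 13737 tested (5.80%). For ATF3 the shares were 24.7% of the higher, 17.4% of the lower and 18.5% of all genes. The letters TGATGCAA of the C/EBP-ATF response element, on either strand, were found in the promoter windows of 30 of 2160 higher genes (1.39%), 8 of 2050 lower genes (0.39%) and 81 of all 10797 genes with a window (0.75%). The AP-1 letters TGACTCA were found in 6.81% of higher, 3.71% of lower and 4.46% of all windows, and the cyclic AMP response element letters TGACGTCA in 4.17%, 2.68% and 3.51% in the same order. None of these 3 motifs contains another. In the authors' deposited table of day 3 against day 0, the promoter peak nearest to the start had gained accessibility for 6.48% of 2394 higher genes, 2.67% of 2324 lower genes and 3.77% of all 11579 genes with such a peak, at the authors' adjusted p under 0.05. By the authors' deposited table it had lost accessibility for 5.97% of the higher, 16.4% of the lower and 10.0% of all these genes. Median log2 changes of accessibility in the authors' deposited table were -0.07 at higher genes, -0.14 at lower genes and -0.10 over all genes. These shares are descriptions of gene groups that may differ in level and promoter type, and the RNA and the chromatin were measured on different days.

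Genes of the integrated stress response rose almost as a whole. This programme follows phosphorylation of the translation factor eIF2 alpha and runs through the transcription factor Atf4 to amino acid synthesis, amino acid transport and aminoacyl-tRNA synthetases. Of 39 members tested, 37 were higher on day 4 and 1 was lower, with a median log2 fold change of 2.04, beside 19.8% higher and a median of 0.06 over all genes. The members summed to 9109 and 8348 CPM on day 4, against 3583, 2597 and 2677 CPM with no crush, so that no crush replicate 1 was the highest of its group. Atf4 itself had 593 and 528 CPM on day 4 against 271, 165 and 153 CPM with no crush (log2 fold change 1.51 ± 0.16 (SE), adjusted p = 1.15e-06). Ddit3, the pro-apoptotic factor CHOP, had 191 and 172 CPM on day 4 against 23.8, 16 and 22.8 CPM with no crush (8.7-fold, adjusted p = 3.02e-11). Sesn2, a sestrin that restrains mTORC1 when leucine is short, had 93.7 and 81.3 CPM on day 4 against 10.1, 5.53 and 8.55 CPM with no crush (10.9-fold, adjusted p = 5.13e-10).

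Among the enzymes and carriers of the same list, the mitochondrial serine hydroxymethyltransferase Shmt2 had 94.2 and 92.6 CPM on day 4 and 10.7, 11.2 and 13.4 CPM with no crush (7.91-fold, adjusted p = 5.26e-11). Slc3a2, the heavy chain shared by several amino acid exchangers, had 301 and 267 CPM on day 4 and 63.3, 41.8 and 38 CPM with no crush (5.97-fold, adjusted p = 1.23e-09). The tRNA synthetases Eprs and Aars rose by less. Eprs had 733 and 642 CPM on day 4 against 213, 189 and 223 CPM with no crush (3.3-fold, adjusted p = 2.46e-10). Aars had 594 and 541 CPM on day 4 against 241, 213 and 238 CPM with no crush (2.46-fold, adjusted p = 1.22e-09). The member that was lower was Ddit4, an inhibitor of mTORC1, with 9.38 and 13.9 CPM on day 4 against 17.7, 17.4 and 22.2 CPM with no crush (adjusted p = 0.0248). That call was lost without day 4 replicate 2 (adjusted p = 0.263) and without no crush replicate 3 (adjusted p = 0.0731). When any library was left out, 35 to 38 members were higher and 0 or 1 lower.

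Chaperones of the endoplasmic reticulum, which the unfolded protein response induces, did not all move 1 way. Of 20 members 7 were higher and 2 lower, beside 19.8% and 19.0% of all genes, and the median log2 fold change was 0.07. The list summed to 4189 and 3656 CPM on day 4 against 2829, 3177 and 3571 CPM with no crush. Hspa5, the chaperone BiP, had 1343 and 1044 CPM on day 4 against 320.2, 426 and 481 CPM with no crush (2.92-fold, adjusted p = 4.30e-07). Herpud1, a component of endoplasmic reticulum-associated degradation, had 133 and 119 CPM on day 4 against 57.7, 44.3 and 30.3 CPM with no crush (2.86-fold, adjusted p = 3.53e-06). The unfolded protein response factor Xbp1 had 101 and 92.1 CPM on day 4 against 49.6, 46.9 and 50.0 CPM with no crush (1.97-fold). Sel1l and Dnajb9, which also serve that degradation pathway, were higher by log2 0.66 and 0.92. The lectin chaperone Canx was lower, with 614 and 559 CPM on day 4 against 794, 896 and 1084 CPM with no crush (log2 fold change -0.66 ± 0.10 (SE), adjusted p = 7.34e-05). Dnajb11 was lower by log2 -0.45, a call that was lost in the component fit (adjusted p = 0.0885).

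Several BH3-only genes, which start apoptosis at the mitochondrion, were higher, next to Hrk. Of 25 cell death genes, 9 were higher and 4 lower, beside 19.8% higher and 19.0% lower over all genes, so that the share that was lower was no larger than over all genes. Bcl2l11, which encodes the BH3-only protein Bim, had 329 and 293 CPM on day 4 and 15.1, 13.1 and 14.6 CPM with no crush (21.8-fold, adjusted p = 5.29e-13). Bbc3, which encodes Puma, had 8.82 and 10.7 CPM on day 4 and 2.27, 3.11 and 2.92 CPM with no crush (3.5-fold, adjusted p = 3.48e-05). Pmaip1, which encodes Noxa, had 8.0 and 14.6 CPM on day 4 and 0.379, 0 and 0.272 CPM with no crush, and its fold of 52.1 became 34.2 without no crush replicate 2. The apoptosome scaffold Apaf1 had 31.1 and 26.2 CPM on day 4 and 9.47, 12.4 and 9.45 CPM with no crush (2.75-fold, adjusted p = 5.48e-05). The survival gene Bcl2l2 was lower, with 119 and 119.9 CPM on day 4 and 164, 173 and 192 CPM with no crush (log2 fold change -0.56 ± 0.10 (SE), adjusted p = 0.000153). Bcl2l1, which encodes Bcl-xL, was lower by log2 -0.45 (37.4 and 38 CPM on day 4 and 53.5, 48.4 and 52.3 CPM with no crush, adjusted p = 0.00811). The Bcl2l1 call was lost in the component fit (log2 -0.34, adjusted p = 0.196). Xiap, an inhibitor of caspases, was lower by log2 -0.44 (adjusted p = 0.00688), a call that was lost in the component fit (log2 -0.22, adjusted p = 0.335). Another member of the list, Bok, was lower by log2 -1.63 (adjusted p = 0.00658), and by log2 -1.46 without day 4 replicate 3.

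Of 22 genes of the p53 pathway, 17 were higher and 2 lower, beside 19.8% and 19.0% of all genes, with a median log2 fold change of 1.19. This list shares Bbc3 and Pmaip1 with the death genes and Sesn2 with the stress genes. Cdkn1a, the cell cycle inhibitor p21, had 615 and 562 CPM on day 4 against 14.4, 13.1 and 17 CPM with no crush (39.7-fold, adjusted p = 5.92e-14). Gadd45a, a stress sensor upstream of p38 and JNK, had 134 and 142 CPM on day 4 against 8.77, 7.81 and 11.3 CPM with no crush (14.8-fold, adjusted p = 8.76e-12). Gadd45g had 72 and 69.7 CPM on day 4 against 8.12, 8.55 and 20.9 CPM with no crush, and its log2 fold change of 2.49 was 3.08 without no crush replicate 3. Mdm2, the ubiquitin ligase that p53 induces against itself, was higher by less, with 205 and 221 CPM on day 4 against 100.1, 121 and 130.0 CPM with no crush (log2 fold change 0.86 ± 0.10 (SE), adjusted p = 2.10e-06). Sesn1 and Plk2 were lower, by log2 -0.53 and -0.52 (adjusted p = 0.0368 and 0.022). Without day 4 replicate 2 these were -0.56 and -0.54, and without day 4 replicate 3 they were -0.50 and -0.51. The Sesn1 call was lost without no crush replicate 2 (adjusted p = 0.082). The Plk2 call was lost without no crush replicate 3 (adjusted p = 0.0619).

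In the DLK and JNK pathway the target Jun and several phosphatases that act on the kinases were higher, while the JNK genes were lower. Of 25 members, 12 were higher and 5 lower; the share that was lower was close to the 19.0% over all genes. Jun (chromosome 4, 95049034 to 95052222) had 451 and 423 CPM on day 4 and 58, 81.6 and 125 CPM with no crush (4.95-fold, adjusted p = 5.29e-08). Dusp16, a phosphatase selective for JNK, had 60.7 and 50.6 CPM on day 4 and 5.79, 4.62 and 6.73 CPM with no crush (9.72-fold, adjusted p = 4.26e-11). Dusp1 was 3.44-fold and Dusp8 2.12-fold higher (adjusted p = 4.24e-09 and 1.04e-06). Tnik, a germinal centre kinase upstream of JNK, had 788 and 784 CPM on day 4 and 235, 208 and 172 CPM with no crush (3.83-fold, adjusted p = 6.60e-10). All 3 JNK genes were lower. Mapk10, the neuronal JNK3, had 334 and 366 CPM on day 4 and 1032, 945 and 997 CPM with no crush (2.83-fold lower, adjusted p = 1.00e-09). Mapk9 had 249 and 247 CPM on day 4 and 407, 371 and 399 CPM with no crush (log2 -0.66, adjusted p = 2.79e-06). Mapk8 had 141 and 149 CPM on day 4 and 201, 187 and 188 CPM with no crush (log2 -0.40, adjusted p = 0.00104). The scaffold gene Mapk8ip2 and the JNK-activating kinase Map2k4 were lower by log2 -0.44 and -0.41, but the Mapk8ip2 call was lost in the component fit (adjusted p = 0.12) and the Map2k4 call without day 4 replicate 3 (adjusted p = 0.0581).

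Genes known from injured and growing axons were mostly higher, 24 of 35 with 3 lower, beside 19.8% and 19.0% of all genes. Their median log2 fold change was 1.27. The list holds Atf3, Sox11, Sprr1a, Ecel1 and Jun, already described. Gap43, a growth cone protein, had 671 and 718 CPM on day 4 and 186, 188 and 226 CPM with no crush (3.47-fold, adjusted p = 6.60e-10). Klf6, a zinc finger factor tied to axon growth, had 671 and 715 CPM on day 4 and 169, 154 and 166 CPM with no crush (4.25-fold, adjusted p = 7.67e-12). Flrt3, an adhesion molecule, had 255 and 273 CPM on day 4 and 57.6, 49.1 and 52.1 CPM with no crush (4.99-fold, adjusted p = 9.50e-12). Gal, the neuropeptide galanin, had 34.1 and 26.7 CPM on day 4 and 2.27, 3.24 and 5.13 CPM with no crush (8.5-fold, adjusted p = 2.96e-07). The 3 members that were lower were Sox4, the alpha tubulin Tuba1a, and Nrn1. Sox4, a relative of Sox11, had 3.96 and 3.84 CPM on day 4 and 8.66, 13.4 and 17.1 CPM with no crush (log2 fold change -1.75 ± 0.38 (SE), adjusted p = 0.00152). Nrn1, the growth factor neuritin, had 651 and 617 CPM on day 4 and 912, 1079 and 1297 CPM with no crush (log2 fold change -0.79 ± 0.11 (SE), adjusted p = 2.07e-05).

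Immediate early genes were split, 10 of 19 higher and 4 lower, the lower share being near the 19.0% over all genes. Egr1 had 505 and 522 CPM on day 4 and 257, 173 and 180.3 CPM with no crush (2.52-fold, adjusted p = 1.39e-06). Fosl2, a Fos family partner of Jun, had 91.5 and 91.7 CPM on day 4 and 12.3, 31.6 and 24.1 CPM with no crush (4.03-fold, adjusted p = 2.98e-06). Ier5 and Btg2 were 3.65-fold and 2.35-fold higher. The activity-regulated Npas4, Nr4a1 and Nr4a3 were lower, by log2 -1.75, -1.52 and -1.78 (adjusted p = 0.00939, 0.0101 and 0.0144), but each of these calls was lost when a day 4 library was left out, with adjusted p = 0.0952 for Npas4, 0.12 for Nr4a1 and 0.125 for Nr4a3. Npas4 had 9.23 and 6.68 CPM on day 4 against 16.9, 17.3 and 46.1 CPM with no crush, highest in no crush replicate 3, and its log2 fold change was -1.11 without that library. Ier3 was lower by log2 -0.99 (adjusted p = 0.000132).

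Receptor genes for cytokines of the LIF family and for fibroblast growth factor were higher, and the neurotrophin receptor genes Ntrk2 and Ntrk3 were lower. Of 29 trophic factor and cytokine receptors, 10 were higher and 7 lower, against 19.8% and 19.0% over all genes; the lower share was near that of all genes. Fgfr1 had 108 and 116 CPM on day 4 against 10.5, 10.6 and 13.3 CPM with no crush (9.73-fold, adjusted p = 8.76e-12). The 2 chains that transmit the signal of the cytokines LIF and CNTF were both higher. Lifr had 174 and 202 CPM on day 4 against 81.2, 68.3 and 59.2 CPM with no crush (2.71-fold, adjusted p = 2.26e-06). Il6st, which encodes gp130, had 248 and 236 CPM on day 4 against 104, 88.6 and 108 CPM with no crush (2.41-fold, adjusted p = 7.67e-07). Ntrk3, the receptor for NT-3, had 22.2 and 27.3 CPM on day 4 against 75.7, 63.2 and 84.7 CPM with no crush (3.01-fold lower, adjusted p = 2.41e-06). Ntrk2, the BDNF receptor TrkB, had 96.7 and 101 CPM on day 4 against 146, 133 and 160.2 CPM with no crush (log2 -0.57, adjusted p = 0.000696, and 0.0635 in the component fit). Sort1, a sorting receptor that binds pro-neurotrophins, was 2.85-fold lower (139 and 138 CPM on day 4 against 386, 425 and 374 CPM with no crush), and Igf1r was lower by log2 -0.55.

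Integrins and matrix genes went both ways, 14 of 40 higher and 11 lower, where 19.8% and 19.0% of all genes were. Besides Mmp12 and Itga5, the matrix protease Adamts1 had 139 and 131 CPM on day 4 and 9.2, 16.8 and 12.6 CPM with no crush (10.5-fold, adjusted p = 5.97e-10). The hyaluronan receptor Cd44 had 113 and 119 CPM on day 4 and 6.33, 2.16 and 5.44 CPM with no crush (25.2-fold, adjusted p = 7.29e-09, and 38.8-fold in the component fit). Among the members that were lower, Hapln1, a link protein that ties proteoglycans to hyaluronan, had 0.448 and 0.379 CPM on day 4 and 27.7, 14.8 and 22.2 CPM with no crush (51.1-fold lower, adjusted p = 1.11e-07). Its relative Hapln4 had 21.4 and 17.3 CPM on day 4 and 75.4, 51.8 and 43.3 CPM with no crush (2.92-fold lower, adjusted p = 1.23e-05). The proteoglycan Bcan and the glycoprotein Tnr were lower by log2 -1.02 and -0.58 (adjusted p = 0.00223 and 0.00419), and the Tnr call was lost in the component fit (adjusted p = 0.22). Mmp9, a gelatinase, had 12 and 10.8 CPM on day 4 and 94.2, 87.6 and 91.3 CPM with no crush (7.96-fold lower, adjusted p = 4.33e-09), the reverse of Mmp12.

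Of 46 axon guidance genes, 21 were lower and 8 higher, beside 19.0% lower and 19.8% higher over all genes, so that the share that was higher was no larger than over all genes. The semaphorin gene Sema7a had 23.3 and 17.8 CPM on day 4 and 68, 88.5 and 78.5 CPM with no crush (3.81-fold lower, adjusted p = 2.11e-07). Sema5a had 97.6 and 88.3 CPM on day 4 and 297, 317 and 379.9 CPM with no crush (3.56-fold lower, adjusted p = 5.52e-09). The ephrin receptor Epha4 had 92.4 and 85.4 CPM on day 4 and 204, 254 and 244 CPM with no crush (2.63-fold lower, adjusted p = 8.83e-08). Robo2, the Slit receptor of RGC axons, was lower by log2 -1.003. Next to Sema3c, the semaphorin gene Sema6a was higher, with 950.3 and 929.8 CPM on day 4 and 573, 413 and 489.8 CPM with no crush (log2 0.93, adjusted p = 6.77e-06). The plexin gene Plxna2 had 336 and 374 CPM on day 4 and 191, 223 and 191 CPM with no crush (log2 0.81, adjusted p = 1.70e-05). Rgma, a repulsive guidance molecule, had 61.7 and 60.2 CPM on day 4 and 27.4, 29.8 and 23.6 CPM with no crush (log2 1.18, adjusted p = 1.71e-05). Among neuropeptide and granule genes, 8 of 18 were higher and 5 lower, beside the same shares of all genes. Vgf had 109.9 and 104 CPM on day 4 and 11.4, 6.82 and 12.8 CPM with no crush (10.4-fold, adjusted p = 5.04e-10). Adcyap1, which encodes PACAP, had 177 and 195 CPM on day 4 and 32.9, 43 and 44.3 CPM with no crush (4.63-fold, adjusted p = 3.74e-10). The granin Scg2 had 2544 and 2311 CPM on day 4 and 693, 867 and 943 CPM with no crush (2.91-fold, adjusted p = 7.89e-09). The granins Chga and Chgb were lower, by log2 -1.63 and -1.05 (adjusted p = 1.22e-09 and 2.99e-05).

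**Figure D3:**
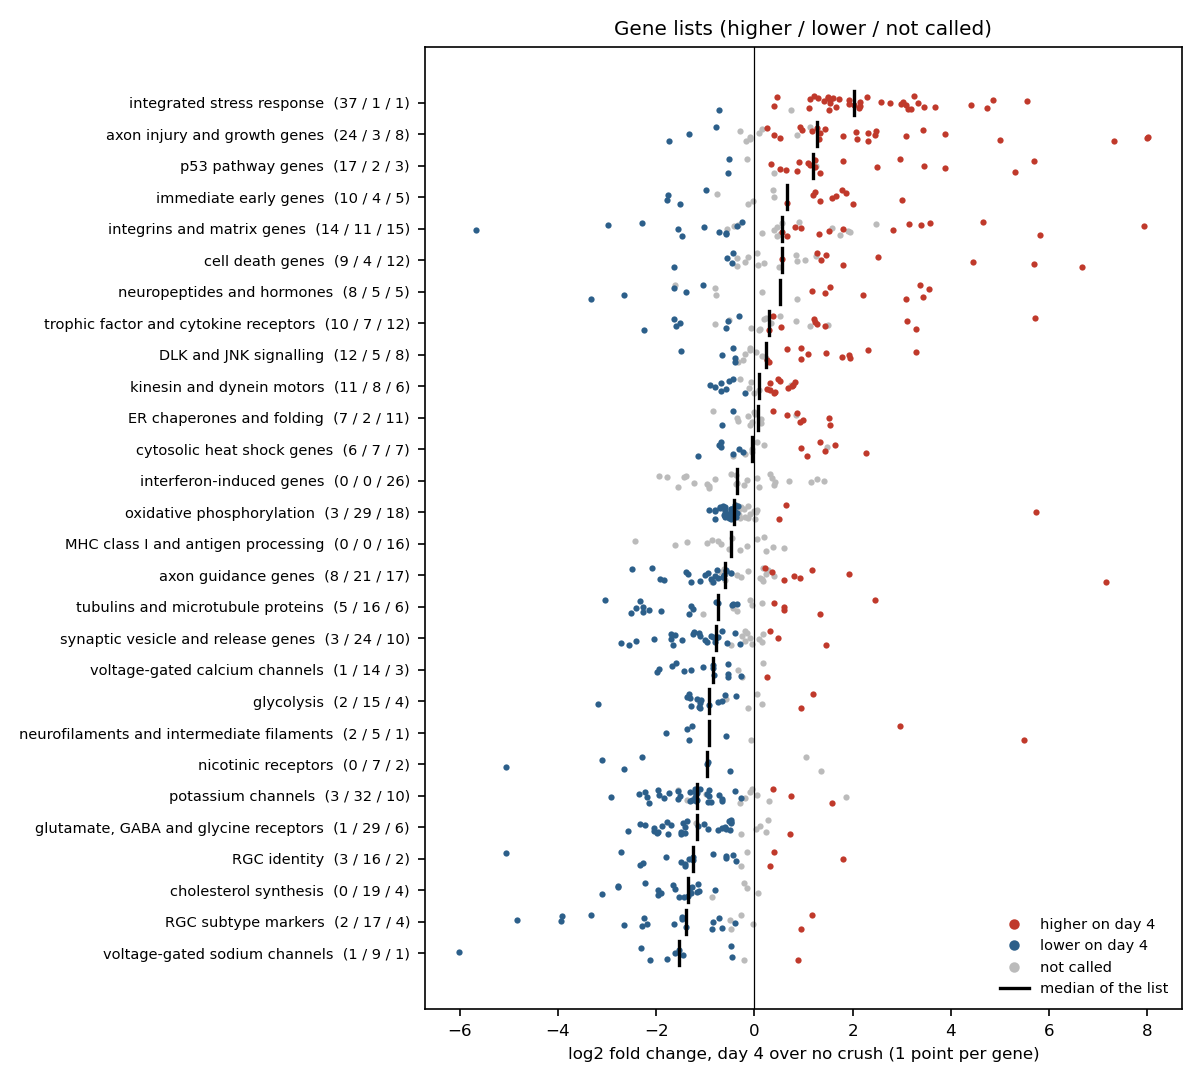
log2 fold change of day 4 over no crush (x axis) for every tested member of 28 gene lists (rows, ordered by their median, the black bar), with higher genes red, lower genes blue and genes that were not called grey. The integrated stress response lies on the right with 37 higher, and the channel, receptor and cholesterol lists lie on the left.

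Genes that mark RGCs and their subtypes were mostly lower. Of 21 RGC identity genes, 16 were lower, 3 higher and the median log2 fold change was -1.25, beside 19.0% lower over all genes. They summed to 9993 and 9565 CPM on day 4 and 14076, 14353 and 15679 CPM with no crush. The RNA-binding protein gene Rbpms, used to count RGCs, had 219 and 217 CPM on day 4 against 583, 549 and 605 CPM with no crush (2.65-fold lower, adjusted p = 1.54e-09). Rbpms2 had 68.3 and 57.6 CPM on day 4 against 272, 330.4 and 352 CPM with no crush (5.05-fold lower, adjusted p = 8.52e-10). Pou4f2, a POU factor that specifies RGCs, had 51.8 and 42.9 CPM on day 4 against 246, 218 and 219 CPM with no crush (4.81-fold lower, adjusted p = 3.65e-10). Its relative Pou4f1 had 155 and 149 CPM on day 4 against 460.2, 348 and 413 CPM with no crush (2.68-fold lower, adjusted p = 4.31e-08). The 3 members that were higher were Gap43, Stmn2 and Slc17a6. Stmn2, a regulator of microtubules, had 937 and 858 CPM on day 4 against 601, 703 and 729 CPM with no crush (log2 0.41, adjusted p = 0.00203). Slc17a6, whose values are given above, was higher by log2 0.31 (adjusted p = 0.0155). That call was lost without day 4 replicate 2 (adjusted p = 0.12) and without no crush replicate 2 (adjusted p = 0.0803).

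Of 23 subtype markers, 17 were lower and 2 higher, beside 19.0% and 19.8% of all genes. The calcium-binding protein genes fell far. Calb1 had 5.57 and 4.97 CPM on day 4 and 147, 160.3 and 145 CPM with no crush (28.5-fold lower, adjusted p = 8.76e-12). Pvalb had 4.37 and 4.41 CPM on day 4 and 59.6, 72.3 and 69.5 CPM with no crush (15.3-fold lower, adjusted p = 3.02e-11). Calb2 had 268 and 288 CPM on day 4 and 720.4, 735 and 874 CPM with no crush (2.79-fold lower, adjusted p = 9.93e-09). Jam2, which marks J-RGCs tuned to upward motion, had 57.9 and 62.4 CPM on day 4 and 383, 382 and 381 CPM with no crush (6.35-fold lower, adjusted p = 4.29e-10). The peptide gene Cck had 4.78 and 3.65 CPM on day 4 and 41.5, 40.8 and 45.5 CPM with no crush (10.1-fold lower, adjusted p = 1.65e-07). The factor Neurod2 had 6.76 and 8.58 CPM on day 4 and 40.4, 33.1 and 36.1 CPM with no crush (4.77-fold lower, adjusted p = 2.27e-07). The 2 that were higher were Penk and Spp1. Penk, which encodes enkephalin, had 198 and 177 CPM on day 4 and 71.2, 73.7 and 103 CPM with no crush (2.26-fold, adjusted p = 2.13e-06). Spp1, which encodes osteopontin and marks alpha RGCs, had 101 and 108 CPM on day 4 and 74.2, 33.9 and 54.6 CPM with no crush (log2 0.95, adjusted p = 0.0168). The Spp1 call was lost when either day 4 library was left out, with adjusted p = 0.0568 and 0.0876.

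Voltage-gated channel genes were mostly lower. Of 11 sodium channel genes, 9 were lower and 1 was higher, beside 19.0% and 19.8% of all genes. The list summed to 1311 and 1316 CPM on day 4 against 3802, 3765 and 3952 CPM with no crush. The alpha subunit genes Scn1a and Scn8a were both lower. Scn1a had 291 and 296 CPM on day 4 against 1281, 1258 and 1296 CPM with no crush (4.36-fold lower, adjusted p = 1.28e-10). Scn8a had 199 and 217 CPM on day 4 against 754, 674 and 726 CPM with no crush (3.46-fold lower, adjusted p = 1.05e-09). Scn4b, the beta 4 subunit, was the largest fall of all named genes, with 0.187 and 0.569 CPM on day 4 against 29.9, 17.2 and 24.5 CPM with no crush; its log2 fold change of -6.02 was -5.38 without day 4 replicate 2 and -6.96 without day 4 replicate 3. Scn9a, the channel Nav1.7 of peripheral sensory neurons, was the member that was higher, with 58.1 and 63.1 CPM on day 4 against 36, 33.2 and 28.9 CPM with no crush (log2 fold change 0.89 ± 0.14 (SE), adjusted p = 6.96e-05).

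Of 45 potassium channel genes, 32 were lower and 3 higher, beside 19.0% and 19.8% of all genes, with a median log2 fold change of -1.16. Kcna2, a Kv1 channel of the axon next to the nodes, had 328 and 351 CPM on day 4 and 1552, 1477 and 1507 CPM with no crush (4.46-fold lower, adjusted p = 7.02e-11). Kcnip4, an auxiliary subunit of A-type channels, had 171 and 157 CPM on day 4 and 646, 583 and 661 CPM with no crush (3.84-fold lower, adjusted p = 6.60e-10). The leak channel gene Kcnk2 was among the members that were higher and had 23.7 and 22.1 CPM on day 4 and 7.31, 9.41 and 6.34 CPM with no crush (2.98-fold, adjusted p = 8.37e-06). The calcium-activated Kcnma1 was higher too and had 242 and 246 CPM on day 4 and 159, 142 and 134 CPM with no crush (log2 0.75, adjusted p = 4.24e-06). Calcium channel genes were lower in 14 of 18 cases, beside 19.0% of all genes. Cacna1g, a T-type channel, had 26.9 and 27.3 CPM on day 4 and 109.9, 106 and 108 CPM with no crush (3.98-fold lower, adjusted p = 3.43e-10), and the auxiliary subunits Cacnb2 and Cacna2d2 were 3.83-fold and 3.2-fold lower. Cacna2d1, an injury-induced subunit of sensory neurons, had 219.8 and 207 CPM on day 4 and 175, 169 and 191 CPM with no crush, and its call (adjusted p = 0.0478) was lost under 10 of the 15 alternatives, with adjusted p up to 0.237.

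Transmitter receptors followed the same direction. Of 36 receptor genes for glutamate, GABA and glycine, 29 were lower and 1 was higher, beside 19.0% and 19.8% of all genes. The AMPA receptor subunit Gria4 had 99.2 and 116 CPM on day 4 and 419, 396 and 469 CPM with no crush (3.98-fold lower, adjusted p = 4.47e-10). Gria2, the subunit that makes these receptors tight to calcium, had 194 and 216 CPM on day 4 and 634, 579 and 514 CPM with no crush (2.81-fold lower, adjusted p = 2.53e-09). Gria1 was the member that was higher, at 60.2 and 67.6 CPM on day 4 and 41.2, 33.2 and 40.8 CPM with no crush (log2 fold change 0.73 ± 0.13 (SE), adjusted p = 0.000316). Among GABA receptor genes, Gabrb2 and Gabbr2 were lower by log2 -1.71 and -1.77.

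Nicotinic receptor subunits, which RGCs use for input from cholinergic amacrine cells, held some of the steepest falls. By edgeR 7 of 9 were lower, beside 19.0% of all genes, and 0 higher, with 1 higher at an unadjusted p under 0.05 and 1 higher by DESeq2. The list summed to 374 and 401 CPM on day 4 against 2292, 2277 and 2372 CPM with no crush. Chrna6 (chromosome 8, 27403212 to 27413944) had 17.9 and 15.9 CPM on day 4 against 531, 583 and 578 CPM with no crush (33.4-fold lower, adjusted p = 5.92e-14). Its partner subunit Chrnb3 had 142 and 165 CPM on day 4 against 1352, 1303 and 1309 CPM with no crush (8.6-fold lower, adjusted p = 7.22e-12). Chrna4 had 9.3 and 21.4 CPM on day 4 against 90.0, 93.5 and 106 CPM with no crush, with log2 -2.66 over all libraries and -3.37 without day 4 replicate 3. Chrnb4 was 4.91-fold lower, Chrnb2 and Chrna7 were lower by log2 -0.95 and -0.96, and Chrna3 by log2 -0.50 (adjusted p = 0.00674). In the component fit Chrna7 and Chrna3 were not called (adjusted p = 0.11 and 0.161). The scarce Chrna2 and Chrna5 were not called, with 3.51 and 5.83 CPM on day 4 against 3.03, 1.3 and 1.17 CPM with no crush (adjusted p = 0.0649) for Chrna2 and 0.71 and 3.03 CPM on day 4 against 0.325, 0.95 and 1.36 CPM with no crush (adjusted p = 0.298) for Chrna5. The Chrna5 values of the 2 groups overlapped.

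Synaptic vesicle and release genes were lower in 24 of 37 cases and higher in 3, beside 19.0% and 19.8% of all genes. They summed to 24755 and 23872 CPM on day 4 against 44474, 44136 and 48129 CPM with no crush. Much of that sum is Snap25, a SNARE protein of vesicle fusion, which had 7554 and 6942 CPM on day 4 against 21814, 22283 and 24495 CPM with no crush (3.15-fold lower, adjusted p = 3.43e-10). The vesicle GTPase Rab3a had 86.5 and 80.3 CPM on day 4 against 299, 358 and 374 CPM with no crush (4.12-fold lower, adjusted p = 2.22e-09). The complexin Cplx2 had 221 and 214 CPM on day 4 against 709.9, 668 and 732 CPM with no crush (3.23-fold lower, adjusted p = 7.87e-11). The vesicle glycoprotein Sv2b had 51.3 and 54.2 CPM on day 4 against 316, 244 and 279 CPM with no crush (5.29-fold lower, adjusted p = 2.79e-09). Nsf, which takes spent SNARE complexes apart, was 2.33-fold lower. The 3 members that were higher were Slc17a6, Sv2c and Syt4. Sv2c, a relative of Sv2b, had 339 and 343 CPM on day 4 against 214, 234 and 283 CPM with no crush (log2 0.48, adjusted p = 0.00245). Syt4, a synaptotagmin, had 3041 and 2663 CPM on day 4 against 906, 1026 and 1171 CPM with no crush (2.76-fold, adjusted p = 2.20e-09).

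The other largest falls included hormone and peptide receptors. Trhr, the receptor of thyrotropin-releasing hormone, had 0.673 and 0.379 CPM on day 4 and 23.4, 21.8 and 19.2 CPM with no crush (39.7-fold lower, adjusted p = 1.69e-08). Mme, the peptidase neprilysin, had 1.68 and 0.332 CPM on day 4 and 22.4, 38.9 and 35.5 CPM with no crush, with log2 -4.94 over all libraries, -6.58 without day 4 replicate 2 and -4.26 when day 4 replicate 3 was left out. The relaxin family receptor gene Rxfp3 had 1.61 and 0.284 CPM on day 4 and 17.3, 16.6 and 9.68 CPM with no crush, with log2 -3.89, -5.65 and -3.17 in the same order. The zinc finger factor Zic1 had 1.94 and 0.569 CPM on day 4 and 17.1, 14.4 and 26.9 CPM with no crush, with log2 -3.92, -5.08 and -3.32. In each of Mme, Rxfp3 and Zic1 both day 4 libraries lay below all no crush libraries, and day 4 replicate 2 and replicate 3 differed by more than 2-fold. Sptssb, a subunit of the serine palmitoyltransferase that starts sphingolipid synthesis, was 28.7-fold lower (1.46 and 0.995 CPM on day 4 and 33.3, 33.9 and 40.0 CPM with no crush), Dnah6, an axonemal dynein, 26.5-fold lower, and the little studied 1500009C09Rik, Gm13446 and Smim18 were 26.2-fold, 15.9-fold and 15.5-fold lower.

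Cytoskeletal genes were lower for tubulins and neurofilaments and mixed for motors. Of 27 tubulins and microtubule proteins, 16 were lower and 5 higher, the higher share being near the 19.8% over all genes. Tubulin paralogs are close to identical in sequence, so their counts may be partly shared. Tuba1b had 119.8 and 125 CPM on day 4 and 641, 758 and 706 CPM with no crush (5.74-fold lower, adjusted p = 1.41e-11). Tubb4a had 294 and 282 CPM on day 4 and 1515, 1436 and 1630.2 CPM with no crush (5.3-fold lower, adjusted p = 5.02e-11). Tuba1a had 510.0 and 542 CPM on day 4 and 1078, 1444 and 1463 CPM with no crush (2.53-fold lower, adjusted p = 1.08e-07). The tubulin polymerization promoters Tppp3 and Tppp were 8.27-fold and 5.01-fold lower. The members that were higher were Stmn4, Tubb6, Dcx, Map2 and Stmn2. The stathmin gene Stmn4 had 636 and 647 CPM on day 4 and 90.3, 141 and 116 CPM with no crush (5.52-fold, adjusted p = 2.89e-10). Tubb6 had 16.7 and 14.4 CPM on day 4 and 4.76, 7.21 and 6.34 CPM with no crush (2.54-fold, adjusted p = 0.000149). Dcx, Map2 and Stmn2 were higher by log2 0.61, 0.61 and 0.41.

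The neurofilament genes Nefl, Nefm and Nefh were lower. Nefl had 1276 and 1290.1 CPM on day 4 and 2952, 3267 and 3504 CPM with no crush (2.53-fold lower, adjusted p = 1.21e-07). Nefh had 71.4 and 74.9 CPM on day 4 and 274, 240.1 and 249 CPM with no crush (3.47-fold lower, adjusted p = 1.99e-08). Nefm had 1573 and 1591 CPM on day 4 and 2138, 2303 and 2698 CPM with no crush (log2 -0.59, adjusted p = 0.00537). Alpha-internexin (Ina) and peripherin (Prph) were lower by log2 -1.37 and -1.26. In the component fit Nefm and Prph were not called (adjusted p = 0.338 and 0.136). Of the other intermediate filament genes, Vim was higher at 33.8 and 30.5 CPM on day 4 and 4.65, 2.68 and 5.02 CPM with no crush (7.81-fold, adjusted p = 4.03e-05, and 18.9-fold in the component fit). Nes, a filament of progenitor cells, had 5.08 and 6.4 CPM on day 4 and 0.325, 0 and 0.0778 CPM with no crush with a fold of 45 that became 122 without no crush replicate 1 and 29.6 without no crush replicate 2. Sync, which encodes syncoilin, was not called (adjusted p = 0.92). Of 25 motor genes, 11 were higher and 8 lower, both above the shares of all genes. Several subunits of the dynein motor rose. Dync1h1 had 1961 and 1873 CPM on day 4 and 1018, 1122 and 1248 CPM with no crush (1.7-fold, adjusted p = 8.25e-06), and Dync1li2 and Dync1i2 were 1.77-fold and 1.74-fold higher. The neuronal dynein intermediate chain Dync1i1 was lower by log2 -0.90, and among kinesins Kif5a had 767 and 763 CPM on day 4 and 1226, 1116 and 1336 CPM with no crush (log2 -0.68, adjusted p = 4.02e-06), Kif21a was lower by log2 -0.59 and the kinesin light chain Klc2 by log2 -0.80.

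Cholesterol synthesis, which SREBP-2 controls through the enzymes of the mevalonate pathway, fell as a list. Of 23 members 19 were lower, beside 19.0% of all genes, 0 were higher, and the median log2 fold change was -1.35. At an unadjusted p under 0.05, 20 were lower and 0 higher, and DESeq2 called 20 lower and 0 higher. Hmgcs1, an early enzyme of the pathway, had 141 and 121 CPM on day 4 and 303, 395 and 436 CPM with no crush (2.89-fold lower, adjusted p = 6.31e-08). Fdps was 3.75-fold lower, Insig1, the sterol sensor that retains SREBP, 3.14-fold lower, and the transcription factor gene Srebf2 itself had 57.7 and 58.9 CPM on day 4 and 125, 125 and 138 CPM with no crush (2.23-fold lower, adjusted p = 6.27e-07).

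Glycolytic enzymes were lower in 15 of 21 cases and higher in 2, beside 19.0% and 19.8% of all genes. Aldoc, the brain aldolase that is also a marker of astrocytes, had 112 and 105 CPM on day 4 and 864, 949 and 1161 CPM with no crush (9.11-fold lower, adjusted p = 4.52e-11). Aldoa had 1069.7 and 978 CPM on day 4 and 1817, 2029 and 1962 CPM with no crush (1.89-fold lower, adjusted p = 1.26e-07). The pyruvate kinase Pkm had 614 and 606 CPM on day 4 and 1231, 1415 and 1476 CPM with no crush (2.25-fold lower, adjusted p = 9.02e-09). Gpi1, Pfkm and Ldhb were 2.15-fold, 2.44-fold and 2.59-fold lower. The glucose transporter gene Slc2a1 was higher, at 248 and 213 CPM on day 4 and 91.5, 114 and 98.3 CPM with no crush (2.27-fold, adjusted p = 1.79e-07). So was the hexokinase Hk2, at 16.3 and 21 CPM on day 4 and 11.6, 10.7 and 6.57 CPM with no crush (adjusted p = 0.0173). The Hk2 log2 fold change of 0.96 was 0.76 without day 4 replicate 3. The Hk2 call was lost without no crush replicate 3 (adjusted p = 0.0674).

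Nuclear genes of oxidative phosphorylation were lower by less, with 29 of 50 lower and 3 higher, beside 19.0% and 19.8% of all genes. Their median log2 fold change was -0.41, and mitochondrially encoded genes were not in the table used here. Cox7b had 112 and 118 CPM on day 4 and 251, 194 and 207 CPM with no crush (1.89-fold lower, adjusted p = 1.23e-05). Ndufa4 had 125 and 129 CPM on day 4 and 209, 234 and 221 CPM with no crush (1.75-fold lower, adjusted p = 1.80e-06). Sdha, a subunit of complex II, had 288 and 261 CPM on day 4 and 403, 433 and 427 CPM with no crush (1.53-fold lower, adjusted p = 1.89e-05). Besides Cox6a2, the ATP synthase gene Atp5g1 was higher, at 62.3 and 56.4 CPM on day 4 and 38.2, 34.5 and 40.8 CPM with no crush (log2 fold change 0.65 ± 0.13 (SE), adjusted p = 0.000509). The third was Uqcrq, a complex III subunit, whose call (log2 0.49, adjusted p = 0.00519) was lost in the component fit (log2 0.18, adjusted p = 0.401). Its log2 fold change was 0.41 without day 4 replicate 2. Cytosolic heat shock genes were split, 6 higher and 7 lower of 20, both above the 19.8% and 19.0% of all genes. The small heat shock protein gene Hspb1 had 23 and 25.5 CPM on day 4 and 4.38, 5.48 and 5.17 CPM with no crush (4.82-fold, adjusted p = 1.26e-07). Hspb8 had 103 and 110.1 CPM on day 4 and 30.5, 43.4 and 43.7 CPM with no crush (2.71-fold, adjusted p = 2.29e-07). Hsp90aa1 had 1676 and 1461 CPM on day 4 and 748, 856 and 831 CPM with no crush (1.93-fold, adjusted p = 2.57e-07). The co-chaperone Stip1 was lower by log2 -0.68 (adjusted p = 8.31e-05).

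By the difference in CPM, the largest gains were in a few abundant transcripts. Malat1, a nuclear long noncoding RNA, had 31475 and 35461 CPM on day 4 and 12160.4, 13262 and 11026 CPM with no crush (2.75-fold, adjusted p = 1.61e-07) and was the top gene of both day 4 libraries, with 3.19% and 3.65% of their counts, where Snap25 was the top gene of the no crush libraries. Cpe, a peptide-processing carboxypeptidase, had 3231 and 2692 CPM on day 4 and 1042, 1145 and 1057 CPM with no crush (2.74-fold, adjusted p = 1.27e-08). Rtn4, which encodes Nogo, had 4018 and 3821 CPM on day 4 and 1879, 2010.2 and 2168 CPM with no crush (1.94-fold, adjusted p = 1.10e-06). The kinase Gsk3b had 2354 and 2422 CPM on day 4 and 1189, 1212 and 1279.5 CPM with no crush (1.95-fold, adjusted p = 2.97e-08). Next to Snap25 and Nefl, the largest losses were in Vsnl1, a calcium sensor, with 487 and 488 CPM on day 4 and 3313, 2882 and 3104 CPM with no crush (6.36-fold lower, adjusted p = 3.74e-11). The sodium pump subunit Atp1b1 had 2809.8 and 2515 CPM on day 4 and 4677, 4658 and 5222 CPM with no crush (1.82-fold lower, adjusted p = 2.65e-07). The calmodulin gene Calm2 was 1.87-fold lower, and Ttc3 was 1.95-fold lower.

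Xist, the RNA that coats the inactive X chromosome of female cells, had 4689 and 3583 CPM on day 4. With no crush it had 206 CPM in replicate 1, 0.389 CPM in replicate 2 and 0.739 CPM in replicate 3. The log2 fold change was 5.92 ± 1.63 (SE, adjusted p = 0.0081), and 12.78 without no crush replicate 1, so that its size rests on that library. DESeq2 gave Xist no adjusted p. On day 3 Xist had 961, 6.11 and 895 CPM. The labels give no sex and no Y-linked gene was in the table used here, so whether the libraries hold different mixes of male and female mice, and the part of that in other results, was not tested.

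Interferon-induced genes were not called in either direction, and the no crush libraries lay far apart. Of 26 members, 0 passed by edgeR, 0 had an unadjusted p under 0.05 and 0 passed by DESeq2, which gave 4 of them, Rsad2 included, no adjusted p. The list summed to 789 and 921 CPM on day 4, against 289, 312 and 3764 CPM with no crush. The day 4 libraries lay above no crush replicates 1 and 2 and far below replicate 3. The groups also overlapped in both genes named next. Rsad2, the antiviral protein viperin, had 31.7 and 30.2 CPM on day 4 and 1.08, 0.432 and 32.5 CPM with no crush (log2 fold change 1.42 ± 0.95 (SE), adjusted p = 0.261). Ifih1, a sensor of double-stranded RNA, had 16.1 and 19.9 CPM on day 4 and 2.27, 2.55 and 17.1 CPM with no crush (log2 fold change 1.28 ± 0.72 (SE), adjusted p = 0.179). Without no crush replicate 3, 21 of 26 members were higher, 0 were lower and the median log2 fold change was 2.31 in place of -0.36, with 5.39 for Rsad2 (adjusted p = 8.25e-06). Without no crush replicate 1 instead, 2 members were lower and 0 higher. The sign of the median also changed with the processing when all libraries were kept. In the component fit 26 members were positive, with a median log2 of 2.46 and 3 called higher. By limma on the deposited normalized values 21 were positive and 5 negative, with a median of 0.97 and 1 called higher. By DESeq2 the median was -0.39.

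Genes of MHC class I and antigen processing behaved alike in the same libraries: of 16 members 0 passed by edgeR and 0 by DESeq2, which gave 3 no adjusted p, and 2 were lower at an unadjusted p under 0.05. The list summed to 1241 and 1269.7 CPM on day 4 and 419, 529.5 and 3226 CPM with no crush, and without no crush replicate 3 there were 7 members higher and 0 lower. There were 4 lower and 0 higher without no crush replicate 1, and without no crush replicate 2 there were 3 lower and 0 higher. In the component fit all 16 members were positive, with 3 called higher and 0 lower. The immunoproteasome subunit Psmb8 had 8.26 and 6.92 CPM on day 4 and 1.73, 2.03 and 55.1 CPM with no crush, and the peptide transporter gene Tap1 had 10.1 and 8.48 CPM on day 4 and 4.55, 5.53 and 74.3 CPM with no crush. The groups overlapped in both genes. The interferon list summed to 3878, 4248 and 1958 CPM on day 1 and to 4243 and 1413 CPM on day 2, all above both day 4 libraries. On day 3 it summed to 228, 194 and 216 CPM. On day 4 all 26 members had a positive difference from day 3, with a median log2 of 2.96, but 2 passed the test. With only the day 4 and day 3 libraries in the fit 24 passed, beside 656 of all 13554 genes. That fit leaves out the spread among the no crush, day 1 and day 2 libraries. In the component fit 16 passed, beside 273 of all 13737 genes. For the MHC list the counts were 0 in the fit of all days, 10 with only days 4 and 3 and 2 in the component fit, all higher. All of these counts rest on 2 day 4 libraries.

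**Figure D4:**
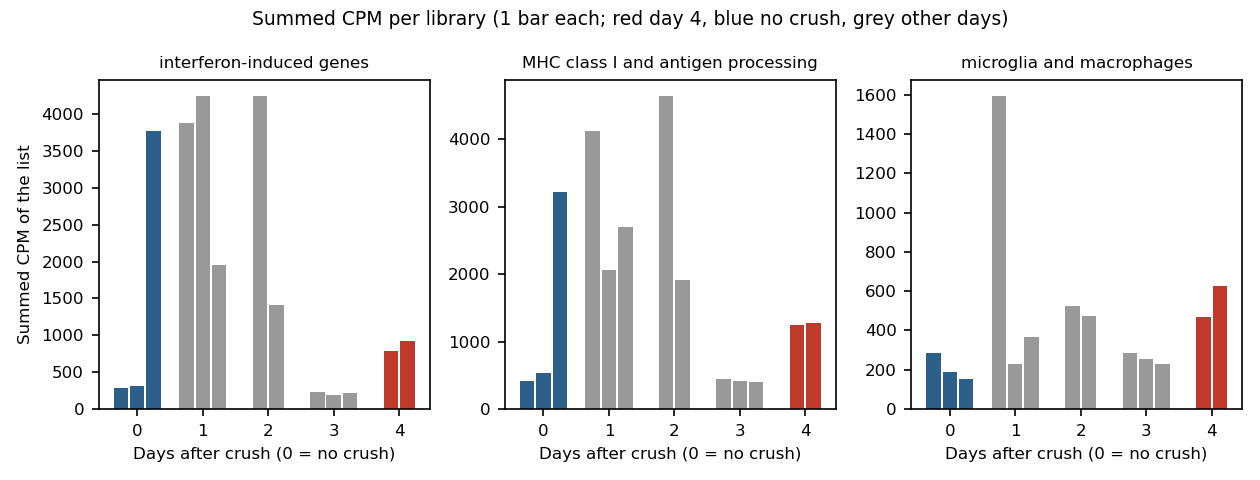
Summed CPM (y axis) of the interferon-induced, the MHC class I and the microglia and macrophage lists in each of the 13 libraries (1 bar each) by day after crush (x axis, 0 for no crush), with day 4 red and no crush blue. In the interferon list no crush replicate 3 stands at 3764 CPM, the day 1 libraries at 3878, 4248 and 1958 CPM and the day 2 libraries at 4243 and 1413 CPM. In the microglia list day 1 replicate 1 stands at 1595 CPM.

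Markers of other retinal cells were detected in these libraries, and microglia and macrophage markers were higher on day 4 than with no crush. Of 14 members, 8 were higher on day 4, beside 19.8% of all genes, and 0 lower (0 at an unadjusted p under 0.05 and 0 by DESeq2, which called 7 higher). Their median log2 fold change was 1.38, and their sum was 471 and 627 CPM on day 4 and 284, 188 and 151 CPM with no crush. Both day 4 libraries lay above all no crush libraries, and replicate 3 was the higher of the pair. On day 3 the sum was 284, 254 and 231 CPM, which overlaps the no crush libraries. On day 2 it was 525 and 475 CPM, within the range of the day 4 libraries, and on day 1 it was 1595, 227 and 365 CPM. No member was at 0 in any of the 5 libraries. Csf1r, the receptor that microglia need to survive, had 23.9 and 37.8 CPM on day 4 and 16, 12.8 and 6.73 CPM with no crush (log2 fold change 1.39 ± 0.41 (SE), adjusted p = 0.0127). Cx3cr1 had 9.01 and 20.3 CPM on day 4 and 5.09, 4.32 and 3.19 CPM with no crush (adjusted p = 0.00879). The complement gene C1qa had 14.8 and 16.7 CPM on day 4 and 3.68, 6.56 and 1.91 CPM with no crush (adjusted p = 0.00736). The markers P2ry12 and Tmem119, found in microglia and not in other macrophages, were not called, with 6.54 and 7.39 CPM on day 4 against 5.95, 1.9 and 2.99 CPM with no crush for P2ry12 and 4.22 and 4.07 CPM on day 4 against 3.46, 1.6 and 0.972 CPM with no crush for Tmem119. Cd68, a lysosomal protein of phagocytes, stood apart at 97.8 and 106 CPM on day 4 and 8.55, 3.84 and 6.77 CPM with no crush (16-fold, adjusted p = 2.06e-05, and 43.2-fold in the component fit). Without day 4 replicate 3, 2 members were higher in place of 8, and Csf1r and Cx3cr1 were not called (adjusted p = 0.152 and 0.194); without day 4 replicate 2, 8; and without no crush replicate 2, 6. Their part in the results for matrix and immune genes, Mmp12 among them, was not tested.

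Rod, cone, vascular and oligodendrocyte markers had no member called in either direction among the 10, 7, 5 and 3 tested, by edgeR, by DESeq2 or at an unadjusted p under 0.05. Leaving out no crush replicate 1 made 3 rod markers and 1 cone marker higher and 1 rod marker lower. Leaving out no crush replicate 2 made 1 vascular marker higher, and in the component fit 2 rod markers were lower. In 3 of the vascular markers both day 4 libraries lay above all no crush libraries. Among 11 markers of Mueller glia and astrocytes, Clu, Vim and Rlbp1 were higher and Aldoc, S100b and Dkk3 lower. That is 3 in each direction, beside 19.8% higher and 19.0% lower over all genes, and neurons express several of these. The list summed to 1171 and 1139 CPM on day 4 and 1769, 1822 and 1985 CPM with no crush, so that both day 4 libraries lay below all no crush libraries, although the median log2 fold change of the members was 0.56. The Rlbp1 call was lost in the component fit (adjusted p = 0.057). Clu, which encodes clusterin, had 598 and 509 CPM on day 4 and 109.6, 132 and 142 CPM with no crush (4.33-fold, adjusted p = 1.25e-10). Glul, the glutamine synthetase of Mueller glia, was not called, with 180.0 and 172 CPM on day 4 and 160.4, 169 and 160.0 CPM with no crush (adjusted p = 0.332). Of 10 bipolar markers 2 were higher and 1 lower, near or below the shares of all genes. Trpm1 was among those higher, at a few CPM, and Isl1, which RGCs also express, was lower. The Trpm1 log2 fold change of 1.22 was 1.06 without day 4 replicate 3. The Trpm1 call was lost without no crush replicate 3 (adjusted p = 0.0788). Of 9 amacrine and horizontal markers 2 were lower, near the share of all genes. Pax6, also an RGC gene, had 93.7 and 118 CPM on day 4 and 372, 351 and 324 CPM with no crush (3.3-fold lower, adjusted p = 2.11e-09), and Onecut1 was lower by log2 -1.35.

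Day 4 was also tested against day 3, the day before it, in the same fit. The difference was small beside that from no crush: 239 genes (1.74%) passed, 121 higher (0.881%) and 118 lower (0.859%) on day 4. The count rests on both day 4 libraries, since 41 genes passed without day 4 replicate 2 and 1 passed without day 4 replicate 3. The gene that remained was Nptx1, a neuronal pentraxin of excitatory synapses, which was named by rule as well, with 68.9 and 75.7 CPM on day 4 against 141, 151 and 150.0 CPM on day 3 (log2 fold change -1.03 ± 0.11 (SE), adjusted p = 0.000474) and 348, 389 and 441 CPM with no crush. Pvalb, Aldoc and Mmp9 were lower than on day 3 as well. Pvalb had 4.37 and 4.41 CPM on day 4 against 9.52, 10.0 and 8.14 CPM on day 3 (log2 fold change -1.07 ± 0.16 (SE), adjusted p = 0.00651). Aldoc had 112 and 105 CPM on day 4 against 247, 177 and 207 CPM on day 3 (log2 fold change -0.95 ± 0.13 (SE), adjusted p = 0.00362). Mmp9 had 12 and 10.8 CPM on day 4 against 31.9, 18.9 and 19.9 CPM on day 3 (log2 fold change -1.04 ± 0.19 (SE), adjusted p = 0.0115). Slc16a14, a monocarboxylate transporter family member, had 7.66 and 7.53 CPM on day 4 against 17, 22.1 and 14 CPM on day 3 and 5.85, 6.73 and 7.19 CPM with no crush, so that its day 4 level lay just above that of uncrushed RGCs (day 4 over no crush 0.20 ± 0.23 SE on the log2 scale, adjusted p = 0.527).

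Several leading genes of the day 4 comparison differed little from day 3. Atf3 had 449.8, 529 and 482 CPM on day 3 (log2 of day 4 over day 3 0.19 ± 0.14 SE, adjusted p = 0.563), Ddit3 209.6, 241 and 245 CPM (log2 -0.35, adjusted p = 0.201) and Pou4f2 56.9, 56.1 and 50.7 CPM (log2 -0.21, adjusted p = 0.427). Sox11 was higher on day 4 than on day 3, when it had 913, 955 and 858 CPM (log2 fold change 0.56 ± 0.09 (SE), adjusted p = 0.00683), and so was Malat1, which had 17944, 15275 and 17829 CPM on day 3 (log2 fold change 0.98 ± 0.13 (SE), adjusted p = 0.00362). Snap25, Vsnl1 and Chrna6 were lower on day 4 than on day 3, by log2 -0.55, -0.87 and -0.89 (adjusted p = 0.00683, 0.00252 and 0.00252), when they had 10898, 10300.0 and 10729.5 CPM for Snap25, 937, 842 and 900.0 CPM for Vsnl1 and 33.3, 26.3 and 34.2 CPM for Chrna6. In these 5 genes the day 4 libraries did not overlap those of day 3, but without day 4 replicate 3 none was called. In the integrated stress response list 2 members were lower than on day 3 and 0 higher, and the list summed to 9109 and 8348 CPM on day 4 against 9993, 10410.1 and 10017 CPM on day 3.

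Among called genes that averaged 5 CPM or more over the day 4 and day 3 libraries and did not overlap between them, the 8 with the largest rises over day 3 are known from microglia, macrophages and antigen-presenting cells. In all, 24 called genes were at least 10-fold higher than on day 3, and all of them but Cd180, H2-Aa and Cd74 averaged under 5 CPM. Cd180, a receptor of the Toll-like family on immune cells, had 21.7 and 29.8 CPM on day 4 against 3.52, 1.75 and 1.29 CPM on day 3 (log2 fold change 3.55 ± 0.52 (SE), adjusted p = 0.00624), with 6.77, 5.35 and 8.87 CPM in uncrushed RGCs. H2-Aa and Cd74, which make and chaperone MHC class II, had 25 and 42.4 CPM on day 4 against 2.39, 2.66 and 3.09 CPM on day 3 (log2 fold change 3.63 ± 0.60 (SE), adjusted p = 0.00689) for H2-Aa and 40.9 and 91.3 CPM on day 4 against 4.82, 4.71 and 8.56 CPM on day 3 (log2 fold change 3.45 ± 0.56 (SE), adjusted p = 0.00689) for Cd74. The chemokine gene Ccl3 and Ly86, a partner of Cd180, were higher by log2 2.59 and 2.77, and C1qb, C1qc and the cathepsin Ctsh by log2 2.50, 2.52 and 2.44. None of these 8 genes was called without day 4 replicate 3, where adjusted p lay between 0.0783 and 0.294. Whether these rises come from RGCs or from other sorted cells was not tested.

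**Figure D5:**
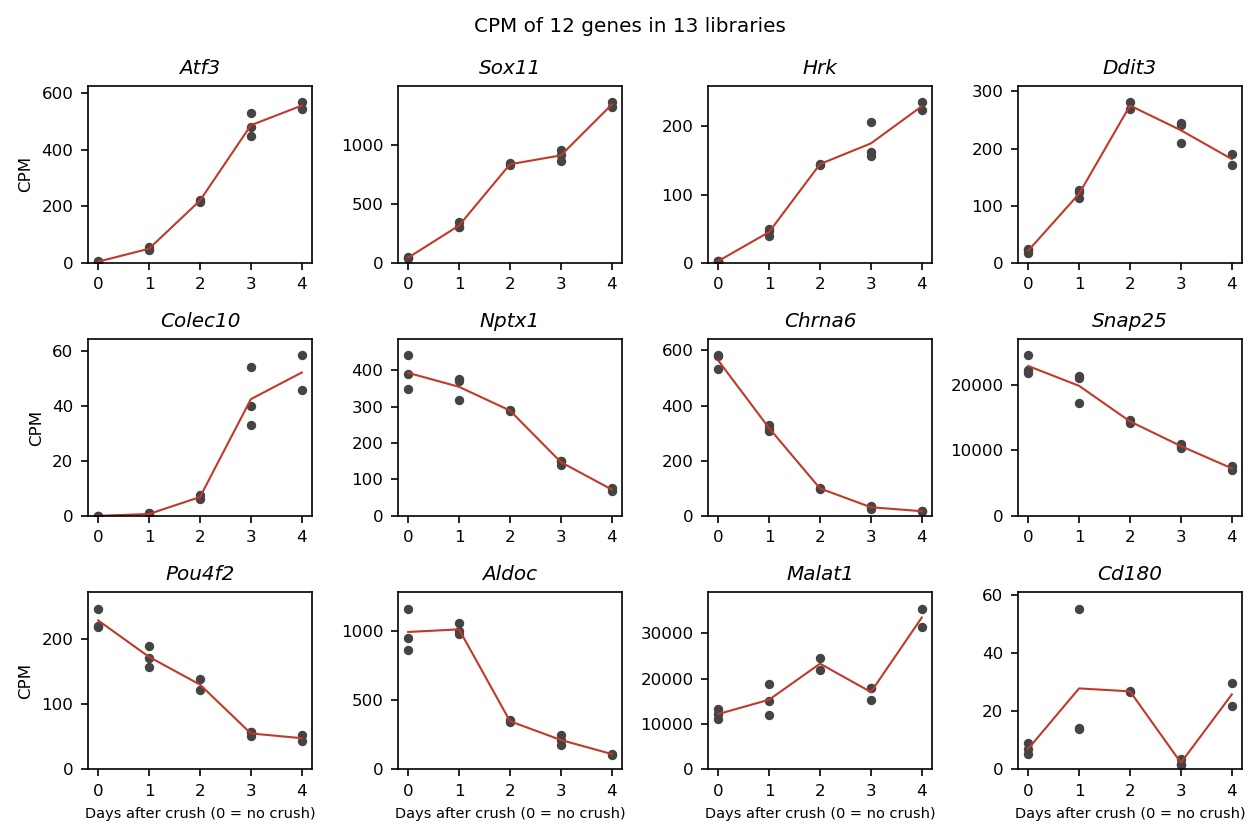
CPM (y axis, from 0) of 12 genes in each of the 13 libraries (points) by day after crush (x axis, 0 for no crush), with the mean of each day joined by the red line. Atf3, Sox11 and Hrk climb to day 4, Chrna6, Snap25, Nptx1 and Aldoc decline to it, and Cd180 is low on day 3 at 3.52, 1.75 and 1.29 CPM.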

How the data were processed

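RNA was counted per gene by the authors, and the deposited whole-number counts for 13752 genes in 13 RNA libraries were the input to all tests. The submitters' processing notes name build mm10 and the tools STAR, HTSeq, Picard and edgeR, without versions. The deposited normalized values are on a log2 scale and entered an alternative, as did the deposited score of each library on sequencing components 1 and 2. In the authors' comparison table of ATAC peaks, the log2 changes and each adjusted p-value are the authors', and the deposited footprint tables give sites called bound from pooled libraries.

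All 13 libraries entered 1 fit in edgeR 4.0.16 (R 4.3.3) with TMM, filterByExpr and day as the term; p was two-sided and adjusted by Benjamini and Hochberg over 13737 genes, threshold 0.05. An SE is the size of a log2 fold change over sqrt(F). A gene at 0 throughout a group got a floor of 3 counts per library, which covers counting error only. The code was tested on simulated data. Alternatives were DESeq2 1.42.0, limma 3.58.1, other scalings and filters, fewer libraries, a replicate block, sequencing components and a fold of at least 2.

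The members and the 29 gene and 8 marker lists were chosen with earlier results of these data known. The genes named were the 15 most raised and 15 most lowered by fold among called genes averaging 5 CPM or more without overlap, up to 6 members per list by adjusted p, members called against their list, all members of lists of up to 10 genes, the 8 largest gains and losses in CPM, the 8 largest changes from day 3, and 9 genes chosen by name. A few further list members (Thy1, P2ry12, Tmem119, Glul) were chosen after their values were seen. A few genes that the rule named are not reported here. Promoter sequences are RefSeq's. Counts of close paralogs (tubulins, calmodulins, MHC genes) and of overlapping genes on opposite strands may be partly shared.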

Additional observations from a re-analysis of the deposited data

How the results depend on the processing

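The count of 5337 genes between day 4 and no crush lay between 3895 (sequencing components as terms) and 5603 (library size only) under the alternatives other than a fold threshold, and every shared call kept its sign. Leaving out 1 library gave 4098 to 5261 genes, 2016 to 2594 of them higher and 2031 to 2677 lower. With only the day 4 and no crush libraries in the fit, 4499 genes were called, 2020 higher and 2479 lower. Requiring a fold change of at least 2 left 2344, of which 1141 were higher and 1203 lower. Library size scaling moved the median log2 fold change of all genes from 0.06 to 0.15.

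The 239 genes between day 4 and day 3 became 623 with DESeq2, 656 with only those groups in the fit and 82 at a fold of at least 2, and 1 to 253 when a library was left out, with 106, 103 and 103 without day 3 replicates 1, 2 and 3. Leaving out day 4 replicate 2 gave 41, and leaving out replicate 3 gave 1. With sequencing components as terms 211 were higher and 62 lower. A cause was not tested.

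Replicate numbers 2 and 3 are shared by day 4 and no crush, but the deviations of same-numbered libraries correlated at 0.051 and -0.049, so the numbers were not taken as pairs; with them as a replicate block 5173 genes were called, 2659 higher and 2514 lower, and 242 between day 4 and day 3. The alternative of removing trends with GC content and length was not run, because the annotation used here gives no GC content.

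Among the genes named by rule, the directions that reversed were those of interferon and antigen processing genes that were not called, plus Chrna5 and Sync. Other list members reversed too: of 10 bipolar markers, 6 had a positive log2 fold change with all libraries, 2 with sequencing components as terms and 3 without no crush replicate 2. When 1 library was left out, the log2 fold change ranged from -2.34 to 1.31 for Gbp6, -2.10 to 1.00 for Ifit3, -2.51 to 1.71 for Iigp1, -1.08 to 0.15 for Psmb10, -1.94 to 2.00 for Psmb8, -3.09 to 0.55 for Psmb9, -2.14 to 0.87 for Tap1 and -1.37 to 0.21 for Tapbp, each time highest without no crush replicate 3. With sequencing components as terms it was 1.73 for Gbp6, 0.86 for Ifit3, 2.64 for Iigp1, 0.54 for Psmb10, 2.35 for Psmb8, 0.36 for Psmb9, 0.17 for Psme1, 1.09 for Tap1 and 0.45 for Tapbp. Psmb8 was at 0.32 with limma. Chrna5 ranged from -0.32 to 1.76, and Sync from -0.29 to 0.19, with 0.012 by library size only. With 2 day 4 libraries, genes near 1 CPM have wide errors.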
